A study of Bos taurus with 8 samples.

Results

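The RAB, ARF and ARL genes encode small GTPases, which direct membrane traffic between the compartments of a cell. Members were matched by gene symbol, from the platform's annotation: RAB followed by a number and at most 1 letter, ARF1 to ARF6, and ARL followed by a number and at most 1 letter. This choice was made with earlier results of these data known. The rule found 69 genes among 15229 named genes on the array, of which 54 were RAB, 5 ARF and 10 ARL genes. A probe above background was available for 61 of them (48 RAB, 5 ARF and 8 ARL genes), and all 61 are described here beside the 11718 named genes measured. RAB3C, RAB9B, RAB19, RAB36, RAB38, RAB39, ARL11 and ARL15 did not pass the detection filter and have no value.

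Gene expression was measured in bovine blastocysts produced in vitro from oocytes of abattoir ovaries. Bovine insulin was present only while the oocytes matured, at 10 µg/ml (INS10) or 0.1 µg/ml (INS0.1), and control oocytes matured without added insulin. All 3 groups then shared the same fertilisation and culture steps, per the labels, so the embryos were sampled after the exposure had ended. Each of 8 2-colour arrays carried RNA of 1 insulin group against control RNA, with 4 arrays per dose, and the insulin RNA was in Cy5 on replicates 1 and 2 and in Cy3 on replicates 3 and 4. The labels call the replicates biological without naming the source of each, so p-values measure only the spread between these samples. Whether same-numbered arrays of both doses carry the same control RNA is not stated, and if they do, the 8 ratios are not independent. How many embryos each RNA came from is not stated in the labels.

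A RAB or ARF protein is active on a membrane when it holds GTP and is switched off when the GTP is cut to GDP. Exchange factors load GTP, GTPase-activating proteins (GAPs) speed its cutting, and active GTPases recruit effectors such as tethers, motors and vesicle coats. In mouse and rat fat and muscle cells, insulin acts through the kinase AKT on the RAB GAPs TBC1D4 and TBC1D1, and RAB8A, RAB10, RAB13 and RAB14 take part in moving the glucose transporter GLUT4 to the cell surface. Much of this control acts on the proteins, which an RNA array does not measure.

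Every value below is a log2 ratio of insulin over control, so 0 means equal levels in both RNAs. Median spot intensities were 163 to 255 in Cy5 and 234 to 348 in Cy3 over backgrounds of 31 to 47, and the number of arrays limits the precision. Among the INS0.1 arrays, replicate 1 differed from the others. Over 274 probes that were higher at INS10 when those 4 arrays were fitted alone, its median ratio was 0.05, against 0.80 to 0.97 on the other INS0.1 arrays. The median over the 61 GTPases was 0.06 on that array, and −0.07 to 0.06 over all 8 arrays.

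No RAB, ARF or ARL gene passed the test between insulin and control. In the limma fit of both doses together, 0 of 61 members had an adjusted p under 0.05, where 2.32% of all named genes did (2.12% higher and 0.196% lower with insulin). At an unadjusted p under 0.05 there were 4 of 61 members, or 6.56%, beside 11.8% of all named genes. RAB37, among these 4, was at background on all INS0.1 arrays. Among the 56 members with any reading above background at each dose, in either RNA, the count was 3, or 5.36%. The count past the adjusted threshold was 0 under all 22 alternative settings tried as well, including the fit without INS0.1 replicate 1, where 2 members had an unadjusted p under 0.05 beside 12.5% of all named genes. The members had a median ratio of 0.01 and a median absolute ratio of 0.09, and all named genes had −0.01 and 0.10. Of the 61, 31 lay above 0 and 30 below, between −0.25 for RAB30 and 0.32 for ARF5.

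For genes with signal above background, the size of change that these arrays allow can be read from the intervals. The median SE of a member was 0.11 log2 units, and for the probe used here the 95% interval of all 61 members stayed within a 1.5-fold change in either direction, as it did for 94.1% of all named genes. The limit of 1.5-fold was chosen after the values were seen. The 61 include 5 genes that were at background in both RNAs on every array of a dose. The background correction shrinks ratios of dim probes, so the intervals of these 5 do not bound a true change. With a smaller offset of 16 in that correction, 59 of 61 members stayed within 1.5-fold. The highest upper bound was 1.47-fold, for ARF5, and the lowest lower bound was 0.716-fold, for RAB30. Further probes of RAB14 and RAB35 had upper bounds of 1.51-fold each. RNA of whole blastocysts was measured, so fewer cells of a type and less RNA per cell cannot be told apart.

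**Figure D1:**
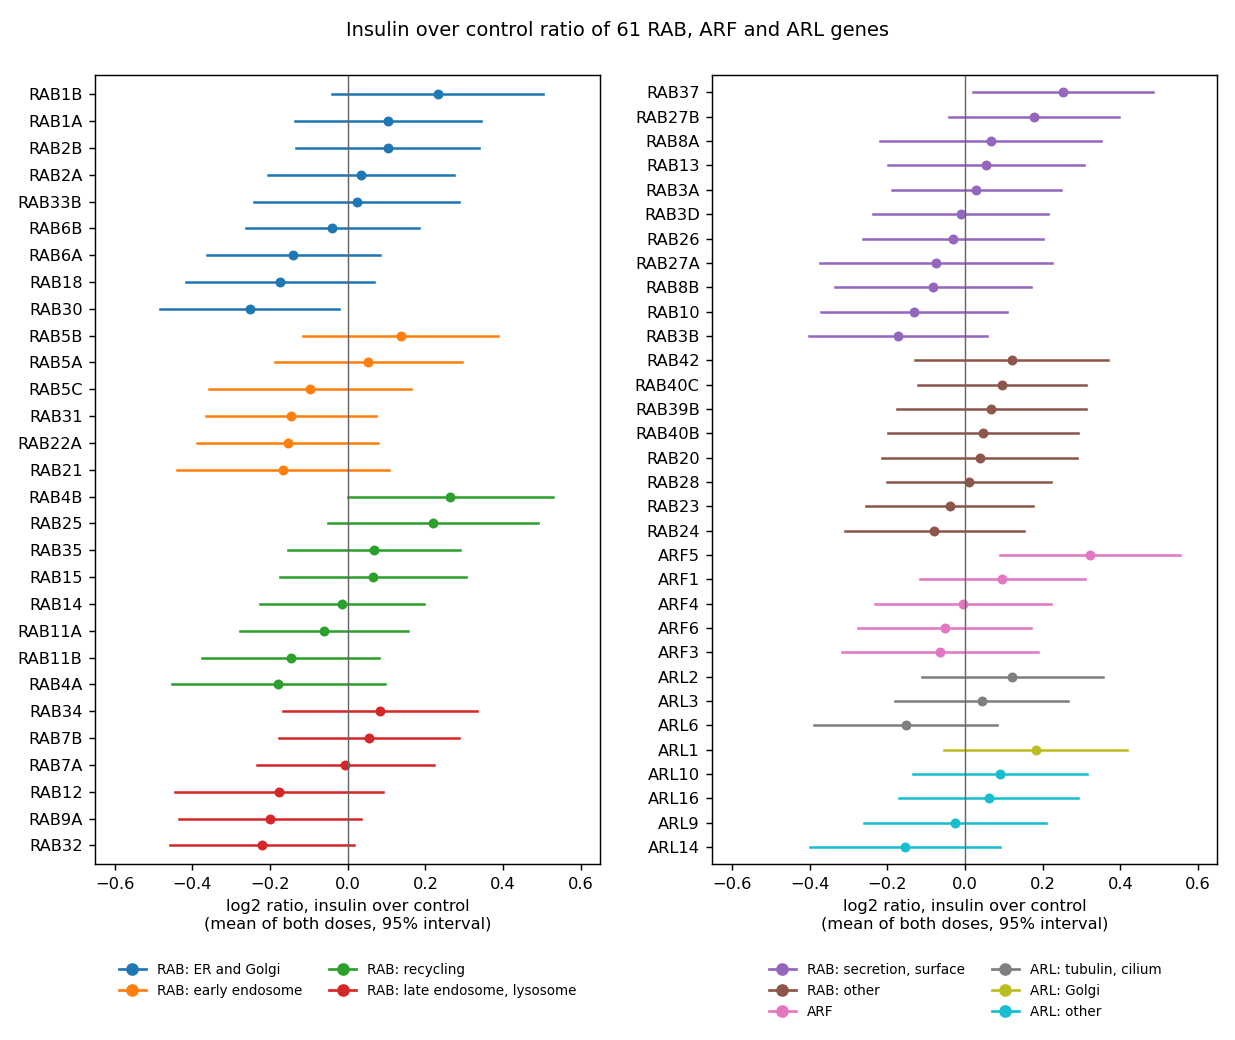
Insulin over control ratio of the 61 measured genes as the mean of both doses, on a log2 scale, with points for the fitted ratio and lines for its 95% interval, coloured by the step of membrane traffic each gene is known for. The points run from −0.25 (RAB30) to 0.32 (ARF5), and the intervals of 4 genes leave out 0 before any adjustment over genes.

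Among the 5 ARF genes, which recruit coats and lipid-modifying enzymes to the Golgi and the cell surface, ARF5 had the largest ratio of all members. ARF5, a Golgi ARF, had ratios of 0.23, −0.05, 0.64 and 0.85 on the INS10 arrays and 0.12, 0.41, 0.11 and 0.27 on the INS0.1 arrays (replicates 1 to 4). It was above 0 on 7 of 8 arrays, and the higher INS10 values were those with insulin RNA in Cy3. On INS10 replicate 4 the normalised log2 intensity was 10.61 in insulin RNA, against 9.76 in control RNA. The fitted ratio was 1.25-fold (log2 0.32, SE 0.11, 95% interval 1.06 to 1.47), with an unadjusted limma p of 0.0089 and an adjusted p of 0.22. Over the alternatives its adjusted p lay between 0.0548, with replicate number as a block and dye fitted separately by dose, and 0.513.

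The other ARF genes sat near 0. ARF1, which brings the COPI coat to the Golgi, had ratios of 0.43, 0.28, −0.07 and −0.01 at INS10, and 0.27, 0.32, −0.10 and −0.35 at INS0.1. Its positive values were all on arrays with insulin RNA in Cy5, and the fitted ratio was 0.10 (SE 0.10, adjusted p = 0.818). ARF6, the ARF of the cell surface and recycling endosomes, had −0.09, −0.33, 0.47 and 0.40 at INS10, against −0.43, −0.33, −0.30 and 0.19 at INS0.1. The doses overlapped, and the fitted ratio of ARF6 was −0.05 (SE 0.11, adjusted p = 0.922). ARF4, another Golgi ARF, was at −0.01, and ARF3, a close relative of ARF1, was at −0.06 from a probe above background in 5 of 16 readings. The median of the family was −0.01.

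RAB genes of the endoplasmic reticulum and Golgi included the lowest ratio of all members. RAB30, a Golgi RAB, had ratios of 0.17, −0.50, −0.71 and −0.39 at INS10, and 0.25, −0.11, −0.46 and −0.26 at INS0.1. Replicate 1 was the sole array above 0 at each dose. The fitted ratio was 0.84-fold (log2 −0.25, SE 0.11, 95% interval 0.716 to 0.985), with an unadjusted limma p of 0.0337 and an adjusted p of 0.415. RAB1B, which acts in transport from the endoplasmic reticulum to the Golgi, was above 0 on all 4 INS0.1 arrays (0.39, 0.48, 0.27 and 0.16) but ran from −0.56 to 1.04 at INS10. Its fitted ratio was 0.23 (SE 0.13, adjusted p = 0.594), and its close relative RAB1A was at 0.10. RAB18, a RAB of the endoplasmic reticulum and lipid droplets, was at −0.17, and the Golgi genes RAB6A and RAB6B were at −0.14 and −0.04. Over the 9 genes of this group the median was 0.02, with 5 above 0.

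The early endosome genes had a median of −0.12 over 6 genes, with 4 of them below 0. Their median on single arrays did not hold to 1 side, and most arrays lay above 0, unlike the median of the fitted ratios. It was 0.15, 0.12, 0.05 and −0.27 at INS10, and 0.12, −0.25, 0.05 and 0.02 at INS0.1. RAB5A, which drives fusion of early endosomes, had ratios of 0.46, −0.09, 0.19 and −0.57 at INS10, and 0.12, 0.02, 0.13 and 0.15 at INS0.1. The INS0.1 arrays were close together and the INS10 arrays were not, and the fitted ratio was 0.05 (SE 0.12, adjusted p = 0.927). Its copies RAB5B and RAB5C were at 0.14 and −0.10. RAB21, known for its part in integrin uptake, was at −0.17 (SE 0.13, adjusted p = 0.735) in a fit that lacked INS0.1 replicate 1, whose spot was marked to be ignored. RAB22A and RAB31, relatives of RAB5 on endosomes, were at −0.15 each, with adjusted p-values of 0.709 and 0.706 in the limma fit.

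In the recycling group, RAB4B had the highest ratio of the RAB family. RAB4B, a RAB of fast return from early endosomes to the surface, had −0.37, 0.24, 0.89 and 0.16 at INS10, and 0.06, 0.65, 0.47 and 0.01 at INS0.1. It was above 0 on 7 of 8 arrays with a wide spread, and the fitted 1.20-fold ratio (log2 0.26, SE 0.13) had an unadjusted limma p of 0.0493 and an adjusted p of 0.482. Its paralog RAB4A pointed the other way, at −0.18 (SE 0.13, adjusted p = 0.714). RAB11A, the RAB of the slower recycling endosome, had 0.14, −0.10, −0.29 and −0.30 at INS10, and 0.37, 0.01, −0.22 and −0.09 at INS0.1. All values above 0 came from arrays with insulin RNA in Cy5, and the fitted ratio was −0.06 (SE 0.10, adjusted p = 0.905). RAB25, the epithelial relative of RAB11, had 0.75, −0.29, −0.29 and 0.71 at INS10, and 0.39, 0.02, 0.27 and 0.20 at INS0.1. All INS0.1 arrays were above 0 while the INS10 arrays split evenly, and the fitted ratio was 0.22 (SE 0.13, adjusted p = 0.622).

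Late endosome and lysosome genes had a median of −0.09, with 4 of 6 below 0. RAB32, which serves lysosome-related organelles and mitochondria, was below 0 on 7 of 8 arrays, from −0.52 to −0.02 at INS10 and from −0.67 to 0.52 at INS0.1. The fitted ratio of RAB32 was −0.22 (SE 0.11, adjusted p = 0.538). RAB9A, which returns receptors from late endosomes to the Golgi, was at −0.20 (SE 0.11, adjusted p = 0.591), and RAB12, which takes transferrin receptor to lysosomes, was at −0.18. RAB7A, the main RAB of late endosomes, had −0.16, −0.09, −0.16 and 0.33 at INS10, and 0.10, −0.50, 0.22 and 0.20 at INS0.1. A single array stood away from the other 3 at each dose, and the fitted ratio was −0.01 (SE 0.11, adjusted p = 0.994).

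The group of secretion and cell surface RABs contains the genes tied to insulin-driven GLUT4 traffic in rodent cells, and none of those passed the test here. RAB10 had ratios of 0.23, −0.26, −0.18 and 0.08 at INS10, and −0.41, −0.55, 0.35 and −0.30 at INS0.1, with a fitted ratio of −0.13 (SE 0.12, 95% interval 0.773-fold to 1.08-fold, adjusted p = 0.767). Further RAB10 probes had the other sign, at 0.13 each. RAB8A had 0.18, 0.44, −0.47 and −0.45 at INS10, and −0.33, −0.05, 0.85 and 0.36 at INS0.1. The RAB8A values turned round with dye orientation in opposite ways at the doses, and the fitted ratio was 0.07 (SE 0.14, 95% interval 0.86-fold to 1.27-fold, adjusted p = 0.924). RAB13 was at 0.05 (SE 0.12, interval 0.871-fold to 1.24-fold) and the recycling gene RAB14 at −0.01 (SE 0.10, interval 0.855-fold to 1.15-fold). For this RAB14 probe all 8 arrays lay between −0.18 and 0.18, but a further RAB14 probe was at 0.36, the highest of all further probes.

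Other genes of this group serve regulated secretion. RAB37, known from secretory granules, was above background in 4 of 16 readings, all on INS10 arrays. Its INS10 ratios were 0.28, −0.23, 0.24 and 0.64. These gave 0.23 in the fit (SE 0.16, adjusted p = 0.903). The mean over both doses, which had an unadjusted p under 0.05, also takes in INS0.1 readings at background and is not read as a measured ratio of RAB37. RAB27B, a secretory granule and exosome RAB, was at 0.18 (SE 0.10, adjusted p = 0.622) and above 0 on 7 of 8 arrays. In insulin RNA its probe was above background on 3 of 4 INS10 and 4 of 4 INS0.1 arrays. In control RNA it was so on 0 and 2. The filter thus kept RAB27B mainly through insulin RNA, which favours ratios above 0, and its sign count is description only. RAB3B, of synaptic and endocrine secretion, was at −0.17 (SE 0.11, adjusted p = 0.66), from a probe above background in 5 of 16 readings. All INS10 readings of RAB3B were at background, so this mean is likewise not read as a measured ratio. The median of the 11 genes was −0.01, with 5 above 0. By dose it was −0.07 at INS10 and 0.13 at INS0.1, readings at background included, and that difference was not tested.

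Signal was low for a few members, which bears on their ratios. In 46 of 61 genes the probe was above background in all 16 readings, and in 7 it was so in fewer than 8. ARF3, RAB3A, RAB37 and RAB40C at INS0.1, and RAB3B at INS10, were not well above background in either RNA on any array of that dose, so no ratio at that dose is given for them, and their mean over both doses takes in background readings. ARL14 at INS10 in insulin RNA, and RAB27B at INS10 and RAB42 at INS0.1 in control RNA, were also not well above background on any of the 4 arrays.

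The remaining RAB genes, with roles from autophagy to ubiquitin ligase assembly, had a median of 0.04 over 8 genes. As the mean of both doses they ran from −0.08 for RAB24 to 0.12 for RAB42, whose probe was above background in 6 of 16 readings. By dose the range was wider, from −0.17 to 0.23 at INS10 and from −0.14 to 0.31 at INS0.1. RAB23, a regulator of hedgehog signalling, was at −0.04, and RAB28 and RAB20 were at 0.01 and 0.04. RAB40C, which forms part of a ubiquitin ligase, was at 0.09 from a probe above background in 4 of 16 readings.

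ARL genes regulate cilia, tubulin folding and the Golgi, and their median of 0.05 was the highest of the families by a margin smaller than the SE of a single gene. ARL1, which recruits golgin tethers to the Golgi, had 0.16, −0.22, 0.51 and 0.17 at INS10, and 0.32, 0.40, −0.18 and 0.30 at INS0.1. It was above 0 on 6 of 8 arrays, with a fitted ratio of 0.18 (SE 0.11, adjusted p = 0.648). ARL2, a tubulin folding regulator, was above 0 on all 4 INS10 arrays (0.61, 0.37, 0.02 and 0.34), and had 0.01, −0.08, 0.24 and −0.54 at INS0.1. Its INS10 effect in the fit was 0.34 (SE 0.16, adjusted p = 0.716), from a probe that at INS10 was above background on 4 of 4 arrays in insulin RNA and on 1 of 4 in control RNA. ARL3 and ARL6, which serve cargo delivery to the cilium, were at 0.04 and −0.15, and ARL14 was at −0.15. ARL10 was at 0.09 (SE 0.11, adjusted p = 0.84), positive on the 4 arrays with insulin RNA in Cy5 and negative on the other 4.

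**Figure D2:**
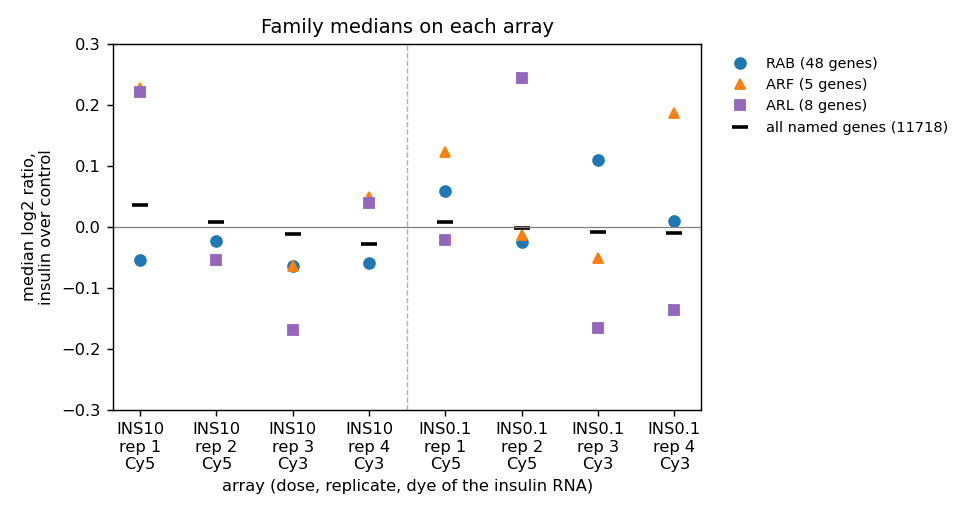
Median log2 ratio of insulin over control on each array for the RAB (48 genes), ARF (5) and ARL (8) families and for all named genes (11718), with arrays ordered by dose, replicate and the dye of the insulin RNA. RAB medians run from −0.06 to 0.11, and the smaller ARF and ARL families scatter more widely, from −0.17 to 0.24, on both sides of 0 at each dose.

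Taken by dose, the GTPases gave the same count of 0. At INS10, 0 of 61 members passed the adjusted threshold, beside 0.589% of all named genes, and 3 of 61 (4.92%) had an unadjusted p under 0.05, beside 7.89%. Those 3 were ARF5 (log2 0.42, SE 0.16, adjusted p = 0.511), RAB30 (−0.36, SE 0.16, adjusted p = 0.652) and ARL2. At INS0.1, 0 of 61 passed, beside 0.145% of all named genes, and 0 had an unadjusted p under 0.05, beside 8.8%. Without INS0.1 replicate 1, 2 members had an unadjusted p under 0.05 at INS0.1, beside 10.6% of all named genes, and 0 passed the adjusted threshold. Intervals were wider than for the mean of both doses. They stayed within 1.5-fold for 47 members at INS10 and for 52 at INS0.1, and for 80.1% and 78.2% of all named genes. The 52 took in ARF3, RAB3A and RAB40C, at background on all INS0.1 arrays, whose intervals do not bound a true change.

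The direct comparison of INS10 with INS0.1 asks whether the dose mattered. No member differed between the doses at an adjusted p under 0.05 (limma, 0 of 61), and 0% of all named genes did. At an unadjusted p under 0.05 there were 0 members, against 2.85% of all named genes. Without INS0.1 replicate 1 there were 2 members, against 4.28% of all named genes. In no member did the 4 INS10 ratios all lie to 1 side of the 4 INS0.1 ratios, which happened in 1.2% of all named genes. RAB39B, a neuronal RAB, had the smallest p: its ratios were −0.43, 0.08, −0.43 and 0.09 at INS10, against −0.20, 0.59, 0.45 and 0.39 at INS0.1. The INS10 minus INS0.1 difference was −0.48 (SE 0.23, 95% interval −0.97 to 0.01, adjusted p = 1). At 22 of 61 members within 1.5-fold, beside 36.7% of all named genes, this comparison bounds the GTPases least well. File names place the 4 arrays of each dose together on a slide, so slide and dose cannot be told apart.

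**Figure D3:**
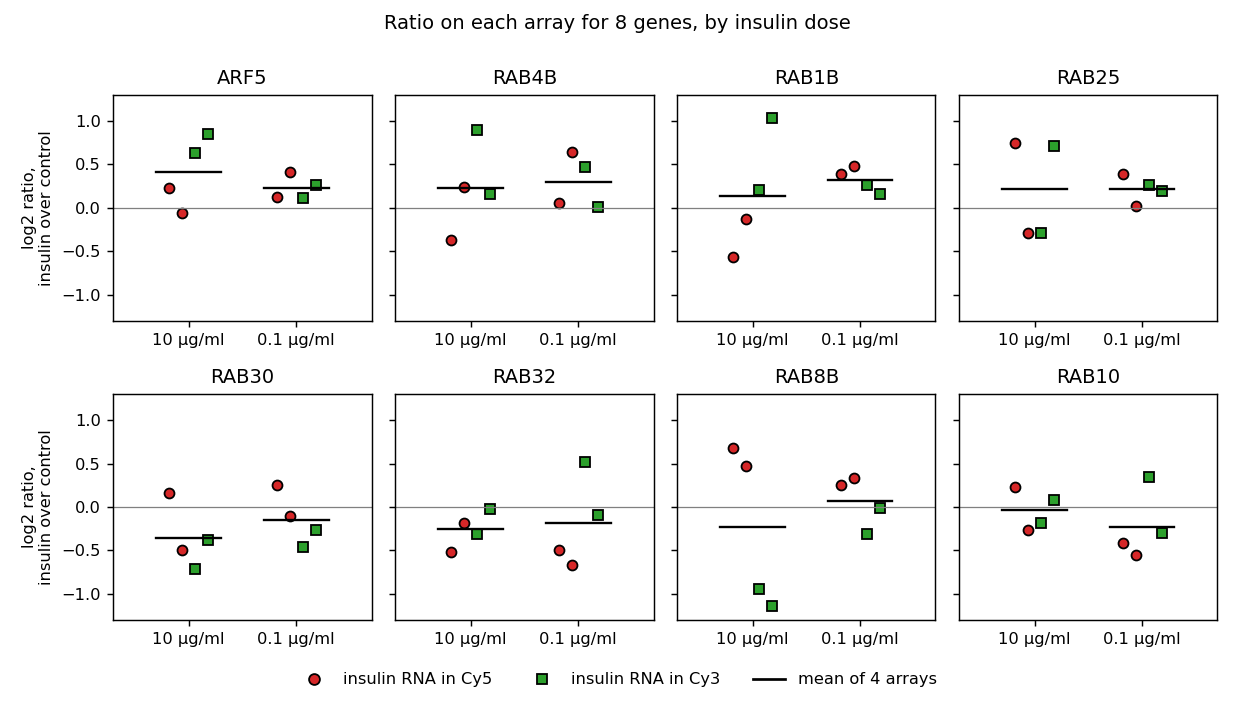
Log2 ratio of insulin over control on each array for 8 of the genes, with circles for insulin RNA in Cy5, squares for insulin RNA in Cy3 and a line at the mean of the 4 arrays of a dose. ARF5 is above 0 on 7 of 8 arrays, RAB30 is below 0 on 6 of 8, and RAB8B is above 0 with insulin RNA in Cy5 and below 0 in Cy3.

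As with ARF1 and ARL10 above, the ratios of RAB8B split by dye orientation. This RAB of surface-directed transport had ratios of 0.68, 0.47, −0.94 and −1.14 at INS10, and 0.25, 0.33, −0.31 and −0.01 at INS0.1. With insulin RNA in Cy5 all 4 arrays were above 0 (mean 0.43), and with insulin RNA in Cy3 all were below (mean −0.60). Its dye effect was 0.51 (SE 0.12, adjusted p = 0.0176), and it was the sole member of 61 (1.64%) past the threshold for dye, where 4.18% of all named genes were. The fitted insulin ratio of RAB8B was −0.08 (SE 0.12, adjusted p = 0.883). Replicates 1 and 2 were in 1 dye orientation and replicates 3 and 4 in the other, so a dye effect and a difference between those replicates cannot be told apart.

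Other probes for the same genes gave no call either. In 21 of the 61 genes 1 or more further probes passed the filter, 31 probes in all, with ratios from −0.29 to 0.36 and 0 past the adjusted threshold. In 21 of these 31 the sign differed from that of the brightest probe. The second RAB14 probe was at 0.36 (SE 0.11, adjusted p = 0.151), beside −0.01 for the probe reported above. Likewise, a further RAB35 probe was at 0.34 (adjusted p = 0.24) beside 0.07, and a further RAB2A probe at −0.29 (adjusted p = 0.347) beside 0.03. These 3 were the further probes with an unadjusted p under 0.05. For dye, 1 of the 31 passed the threshold in limma, a probe of ARL6 (dye effect 0.59, SE 0.12, adjusted p = 0.00638). Which transcript each probe detects, and whether close copies such as RAB5A, RAB5B and RAB5C share signal, was not tested.

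The genes that switch these GTPases on and off or act with them were compared from lists of exchange factors, GAPs, effectors, coats and partners. Of 234 listed genes, 185 were measured, and 5 of them (2.7%) rose with insulin at an adjusted p under 0.05 while 0 fell, close to the 2.12% higher and 0.196% lower among all named genes. At an unadjusted p under 0.05 there were 22 of 185, beside the 11.8% above. The median ratio of the 185 was −0.02. With replicate number as a block and dye fitted separately by dose the count of 5 became 10, beside 640 of 11718 named genes. Without INS10 replicate 4 the count became 8, beside 252 of 11718.

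The 5 that rose were 2 RAB effectors, 1 RAB exchange factor subunit, 1 ARF adaptor subunit and 1 ARL partner. ARL6IP4, a nuclear protein named for binding ARL6 and linked to RNA splicing, had 1.26, 1.46, 0.83 and 0.78 at INS10, and 0.56, 1.54, 1.34 and 1.83 at INS0.1. All 8 arrays were above 0, and ARL6IP4 rose 2.30-fold (log2 1.20, SE 0.13, adjusted p = 0.000122), also past the threshold at INS10 (adjusted p = 0.0124) and at INS0.1 (0.0136). ARL6 itself was at −0.15, with further ARL6 probes at 0.05 each. MICALL1, a recycling endosome effector of RAB8 and RAB35, was above 0 on all 8 arrays, from 0.76 to 0.86 at INS10 and from 0.46 to 1.12 at INS0.1, and rose 1.71-fold (log2 0.78, SE 0.11, adjusted p = 0.000377). Of its further probes, 1 was at 0.85 (adjusted p = 0.00241) and the other at −0.21 (adjusted p = 0.559).

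TRAPPC5, a subunit of the TRAPP complex that activates RAB1, rose 1.71-fold (log2 0.77, SE 0.13, adjusted p = 0.00137), with 0.33, 0.36, 1.39 and 1.07 at INS10 and −0.38, 0.59, 1.81 and 1.01 at INS0.1. The higher values came with insulin RNA in Cy3, its dye effect also passed the threshold (adjusted p = 0.015), and without a dye term the adjusted p was 0.0516. RABEP2, an effector of RAB4 and RAB5, was above 0 on all 8 arrays and rose 1.53-fold (log2 0.62, SE 0.11, adjusted p = 0.00247). AP3D1, the delta subunit of the AP-3 adaptor that ARF1 recruits, rose 1.45-fold (log2 0.54, SE 0.13, adjusted p = 0.0263), with 0.52, 0.10, 1.34 and 0.46 at INS10 and −0.22, −0.20, 1.45 and 0.88 at INS0.1. Its dye effect passed the threshold as well (adjusted p = 0.0269), and its insulin call was lost under 8 of 22 alternatives.

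**Figure D4:**
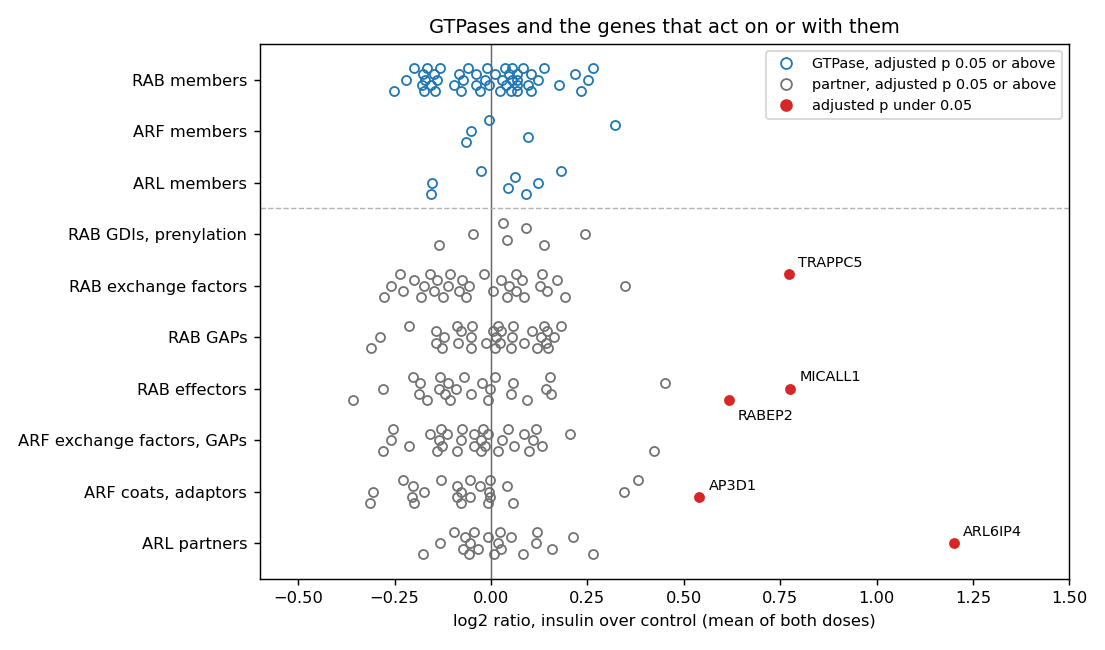
Fitted log2 ratio of insulin over control, as the mean of both doses, for each measured RAB, ARF and ARL gene (above the dashed line) and for each gene of 7 lists that act on or with them (below it), with filled red points for an adjusted p under 0.05. The GTPases lie between −0.25 and 0.32 with none filled, and the 5 filled partner genes lie between 0.54 and 1.20.

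By list, the counts were small. Among 7 genes for prenylation and membrane extraction of RABs 0 passed in limma and 1 had an unadjusted p under 0.05, with a median of 0.04. That gene, RABAC1, a RAB acceptor of the Golgi, was at 0.24 (adjusted p = 0.484). Among 33 RAB exchange factors 1 rose (TRAPPC5) and the median was −0.06, with RAB3IL1 at 0.35 (adjusted p = 0.247) and DENND5A at −0.28 (adjusted p = 0.453). Among 33 RAB GAPs 0 passed in limma and 2 had an unadjusted p under 0.05, TBC1D12 at −0.31 and TBC1D15 at −0.29. Of 27 RAB effectors 2 rose, and MICALL2 was at 0.45 (adjusted p = 0.0913) and OCRL at −0.28 (adjusted p = 0.308). The 31 ARF exchange factors and GAPs held 0 calls in limma and 4 genes with an unadjusted p under 0.05, of which ACAP1 was at 0.42 (adjusted p = 0.113) and ARFGEF1 at −0.26 (adjusted p = 0.348).

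Of 24 ARF coat and adaptor genes 1 rose (AP3D1), while 19 of the 24 lay below 0, with a median of −0.07, where 52.1% of all named genes lay below 0. The sign count was not tested. AP1B1, of the AP-1 adaptor, was at 0.38 (adjusted p = 0.0755) with all 8 arrays above 0, and COPE, of the COPI coat, was at 0.35 (adjusted p = 0.152), also above 0 on all 8. AP3S2 was at −0.31 (adjusted p = 0.249). Among 22 ARL partners 1 rose (ARL6IP4), and the median was 0.01. GCC1, a Golgi golgin, was at 0.27 (adjusted p = 0.385) and ARL2BP, which binds ARL2, at 0.21 (adjusted p = 0.638).

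The GLUT4 machinery outside the GTPases gave 0 calls in limma among 10 genes and 0 at an unadjusted p under 0.05, with a median of 0.01. TBC1D4, the GAP that AKT phosphorylates in rodent cells, was at 0.05 (SE 0.16, adjusted p = 0.953), and its relative TBC1D1 was at 0.15 (adjusted p = 0.722). SLC2A4, which encodes GLUT4 itself, was at −0.02 (SE 0.11, adjusted p = 0.984). GTPases with related names that the rule left out gave 0 calls in limma among 9 measured, and 2 had an unadjusted p under 0.05: RABL3 was at 0.37 (adjusted p = 0.209) and RASEF at −0.26 (adjusted p = 0.413). The other 7 lay between −0.14 (SAR1B) and 0.14 (SAR1A, like SAR1B a GTPase of the COPII coat).

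Cell type markers were read from the same fit. All 7 trophectoderm markers and all 3 inner cell mass markers were measured, and all of them lay above 0. Their medians were 0.16 and 0.28, beside −0.01 over all named genes, and the sign counts were not tested. With insulin, 2 trophectoderm markers rose (TEAD4, 1.61-fold, adjusted p = 0.00122; GATA2, 1.49-fold, adjusted p = 0.0116), as did SOX2 of the inner cell mass (1.61-fold, adjusted p = 0.0042) and APOA1, 1 of 3 hypoblast markers measured (1.60-fold, adjusted p = 0.00513). The median ratio of the trophectoderm list on an array ran from −0.14 to 0.71 at INS10 and from 0.20 to 0.37 at INS0.1. Of 12 cumulus and granulosa cell markers 8 were measured and 1 rose (CYP11A1, 1.80-fold, adjusted p = 0.00346), while 5 of the 8 lay below 0 and the median was −0.06. The other 2 hypoblast markers were at −0.01 (SOX17) and −0.17 (PDGFRA). Of 6 oocyte markers 2 were measured with 0 calls in limma and 0 at an unadjusted p under 0.05, and 1 of 3 measured sperm markers fell (PRM1, 0.641-fold, adjusted p = 0.00439). Their part in the rise of the 5 partner genes was not tested.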

How the data were processed

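RNA of 4 INS10 and 4 INS0.1 replicates was set against control RNA on 8 arrays. The scanner tables, per the file headers, give raw median spot intensity and local background for Cy3 and Cy5. Per the labels' protocols, RNA was amplified and labelled at guanine bases, which can alter ratios. The authors' deposited log2 ratios, steps not stated, correlated at 0.985 to 0.997 with the ratios used here, in the same direction, and served as an alternative only. Their column medians were −0.02 to 0.01, and any scaling between arrays stays unknown.

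Intensities were corrected with normexp (offset 50, which shrinks ratios of dim probes), and normalised by loess within arrays in limma 3.58.1 (R 4.3.3). Controls had weight 0 and 139 ignored spots were left out. Probes above the mean plus 2 SD of 153 negative controls in at least 4 of 16 readings were kept, 29384 of 43794. For each gene the brightest kept probe was used, and symbols came from the platform annotation, which can be old and names 1 gene for each of 21790 probes. The fit (lmFit, eBayes) had 1 effect per dose and 1 for dye, with Benjamini-Hochberg adjustment over all kept probes. It treats arrays as independent.

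Which dye held insulin RNA was taken per the labels. Members and lists were chosen with earlier results of these data known. Named members are the 10 largest and 10 smallest ratios, the 2 smallest p-values of each role, and preset genes. Other members named in the text, such as RAB8B, RAB39B, RAB23 and ARL3, were chosen after their values were seen. Partner lists give genes past the threshold and the smallest p-values. Replicate numbers were checked for pairing: the difference of replicates 1 and 2 correlated between doses at 0.261, and of 3 and 4 at 0.223, so blocked fits were run. The random block had a consensus correlation of −0.0419. Other alternatives changed background, normalisation, filter, dye term, variance model, probe rule or left out an array. The fit was tested on simulated data.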

Additional observations from a re-analysis of the deposited data

Results flagged for a closer look

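Within the 4 arrays of a dose, 5 of 115 sets of member ratios held an array far from the other 3 by Dixon's test, and chance flags about 1 in 20. For RAB7A, the late endosome RAB, INS10 replicate 4 was at 0.33, where the other INS10 arrays were at −0.16 to −0.09, and INS0.1 replicate 2 was at −0.50, where the others were at 0.10 to 0.22. RAB20 on INS0.1 replicate 1 was at −0.29, below the others at 0.12 to 0.20. RAB23 on INS0.1 replicate 4 was at 0.36, above the others at −0.12 to −0.05. RAB28 on INS0.1 replicate 1 was at 0.037, above the others at −0.11 to −0.09. None of these genes had a call in any comparison (limma), and 0 members had opposite signs on all arrays of INS10 and of INS0.1.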

How the results depend on the processing

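The count of RAB, ARF and ARL genes past the adjusted threshold was 0 in each comparison under every alternative run, and the family medians moved by less than the spread between arrays. Over the 22 alternatives for the mean of both doses, 63 of 1327 single-gene values had another sign, none of them called, and 32 of 61 members kept 1 sign throughout. Intervals for that mean stayed within 1.5-fold for 58 to 61 of 61 members, the fewest without INS0.1 replicate 4 or INS10 replicate 1. Genes at background throughout a dose were included in these counts. The replicate block left 0 members called in each form, with the lowest adjusted p 0.0548 for ARF5.

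The count of 5 partner genes became 3 without a dye term and 10 with a replicate block and dye fitted by dose, chosen after seeing the data. It was 6 with the plain replicate block, 5 with it as a random effect and 4 with arrays of 1 number averaged. Leaving out 1 array gave 4 to 8, the most without INS10 replicate 4. AP3D1 lost its call under 8 alternatives (lowest ratio 0.44) and TRAPPC5 under 1, while ARL6IP4, MICALL1 and RABEP2 kept theirs under all 22 (adjusted p at most 0.00366, 0.0443 and 0.0248). Named genes called numbered 272, against 154 without a dye term, 179 with offset 16, 154 with arrays of 1 number averaged, 640 with the block and dye by dose, and 159 to 341 leaving out 1 array. The causes were not tested. Amplified RNA, 4 arrays per dose and a fit that takes arrays as independent limit all p-values, and single-dose intervals reached past 1.5-fold for 14 of 61 members at INS10 and 9 at INS0.1.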
